A study of Mus musculus with 9 samples.

Results

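Cytokine genes and targets of the transcription factor NF-kB were followed in C2C12 myotubes, the multinucleated muscle cells formed by a mouse myoblast line. The members were taken from the table by gene symbol, from a list drawn up with earlier results of these data known: Vcam1, Csf1, Cxcl12, Il1rn, Nfkbia, Nfkb1, Rela, Ccl2 and Icam1. Of these 9 genes, 8 were found among the 10716 genes of the table, and Icam1 was not analysed here. RNA was sequenced from 9 libraries in 3 groups of 3: myotubes exposed to both dexamethasone (50 µM) and THSG (10 µM), myotubes given dexamethasone at 50 µM alone, and myotubes given vehicle. Exposure lasted 24 h in every group. Dexamethasone is a synthetic glucocorticoid used to model muscle wasting in culture, and THSG is an abbreviation that the labels leave unexplained and that often means tetrahydroxystilbene glucoside, a polyphenol from plants. There was no group with THSG and no dexamethasone. All groups share 1 immortal cell line, so replicates stand for cultures or technical repeats of that line, which the labels do not tell apart. The cell line field of the labels counts upward from sample to sample, while every title names C2C12, and the titles were followed.

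NF-kB is a dimer of Rel proteins that IkB proteins hold in the cytoplasm. Signals from the receptors of interleukin 1, TNF and microbial products activate an IkB kinase, the IkB protein is degraded, and the dimer enters the nucleus to switch on cytokine, chemokine and adhesion genes together with its own inhibitors. Glucocorticoids are widely used to damp this programme, and in skeletal muscle the pathway is known for its part in wasting and in the dialogue between injured fibres and immune cells.

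Values are taken to be FPKM, a level scaled to transcript length and library size. Only on that reading can levels of different genes be set side by side. Library sums lay between 400218 and 422379 FPKM, and the read depth behind each value is unknown. All values in the table lay above 1 FPKM, so all 8 listed members had passed that filter in each of the 9 libraries. The mitochondrial genome supplied 14.0% of the summed level in dexamethasone replicate 3 and 10.54% to 11.95% in the other 8 libraries. The glucocorticoid response was present: Fkbp5, a co-chaperone of the receptor and a classical glucocorticoid target, averaged 98.6 ± 2.7 FPKM with dexamethasone plus THSG, 97.8 ± 0.38 FPKM with dexamethasone and 6.57 ± 0.21 FPKM with vehicle (SD, n = 3 each). All 8 of 8 myotube markers were among the genes analysed, with a summed level of 6762 to 6931 FPKM with dexamethasone plus THSG, 6288 to 6780 FPKM with dexamethasone and 6026 to 6577 FPKM with vehicle. Acta1 was a large part of this sum, at means of 3103 FPKM with dexamethasone and 3030 FPKM with vehicle. In the test described below for dexamethasone over vehicle, Ckm, Ttn, Tnnt3 and Mymk were higher, Des was lower and 3 did not pass. Among all genes, 12.7% were higher and 20.9% lower in that test. Of 9 macrophage markers, only Cd14, a co-receptor for bacterial lipopolysaccharide, was analysed (1.45 to 4.05 FPKM over the 9 libraries), and of 8 endothelial markers 0 were.

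Dexamethasone lowered the adhesion and chemoattractant members and raised Il1rn and Nfkbia. Of the 8 listed members, 5 were lower (Vcam1, Csf1, Cxcl12, Ccl2 and Nfkb1), 2 were higher (Il1rn and Nfkbia) and 1 (Rela) did not pass the test, a limma fit over all 10716 genes with a threshold of 0.05 on the adjusted p. Over all genes, 33.6% were called in this comparison, 20.9% lower and 12.7% higher. The libraries of both groups did not overlap for any of the 8 members, 2 with dexamethasone on top and 6 with vehicle on top, where 18.0% and 27.9% of all genes stood apart in those directions. Of the called genes 37.8% were higher, a share that became 49.6% after median-ratio scaling and 50.5% after quantiles were made equal. The median log2 fold change of the 8 members was -0.59, against -0.05 over all genes. These shares describe the members and do not support a statement about the pathway. In bulk RNA, fewer cells of a type and less RNA per cell cannot be told apart.

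**Figure D1:**
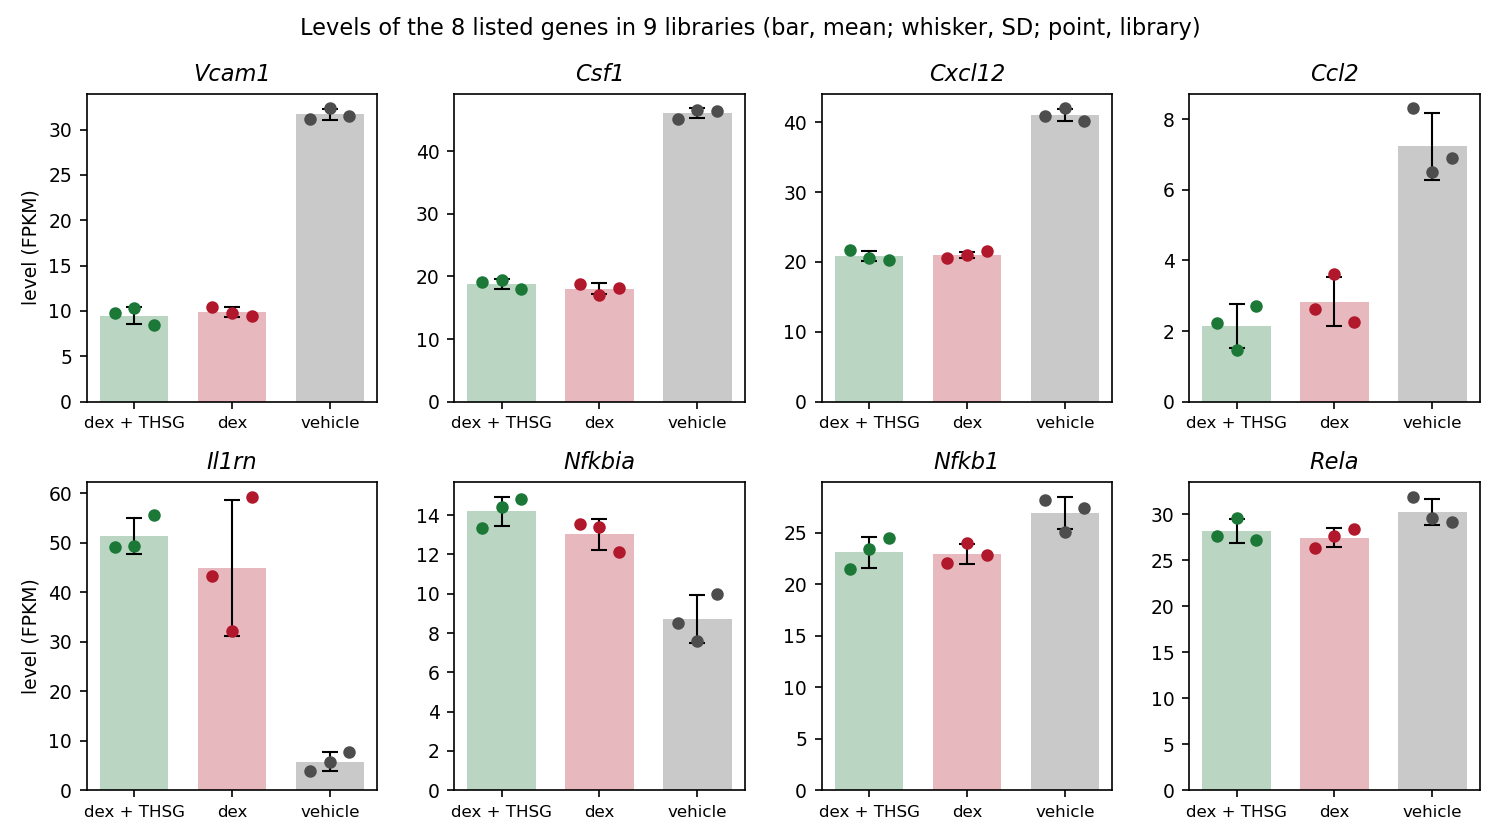
Level in FPKM (vertical axis, linear from 0) of the 8 listed genes with dexamethasone plus THSG, dexamethasone (dex) and vehicle; points are libraries, bars means and whiskers SD of 3 libraries. Vcam1, Csf1, Cxcl12 and Ccl2 stand lower in all 6 libraries with dexamethasone than in the 3 vehicle libraries, and Il1rn and Nfkbia stand higher.

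Vcam1 had the lowest log2 fold change of the 8 members for dexamethasone over vehicle, though differences between members were not tested. It encodes the cell surface protein that binds integrin alpha4 beta1, on leukocytes and on muscle cells during fusion. Vcam1 stood at 9.73, 10.3 and 8.43 FPKM with dexamethasone plus THSG, at 10.5, 9.73 and 9.49 FPKM with dexamethasone, and at 31.2, 32.4 and 31.5 FPKM with vehicle. The 3 vehicle libraries lay far above the 6 others, which overlapped among themselves. Dexamethasone against vehicle gave a log2 fold change of -1.67 with a standard error of 0.078 (limma, adjusted p = 2.02e-08), a 3.18-fold lower level that ranked 33 from the bottom among all genes.

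Csf1 encodes the macrophage colony-stimulating factor, a growth and survival factor of macrophages. Its level was 19.2, 19.4 and 18.0 FPKM with dexamethasone plus THSG, 18.8, 17.0 and 18.2 FPKM with dexamethasone, and 45.2, 46.6 and 46.4 FPKM with vehicle. The vehicle libraries again stood apart from all others, and the log2 fold change was -1.35 (SE 0.055, limma adjusted p = 6.61e-09). Its receptor gene Csf1r was not analysed here.

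Cxcl12 encodes a chemokine that retains and attracts cells carrying the receptor CXCR4, satellite cells and leukocytes among them. It measured 21.7, 20.6 and 20.3 FPKM with dexamethasone plus THSG, 20.6, 21.0 and 21.5 FPKM with dexamethasone, and 40.9, 42.0 and 40.2 FPKM with vehicle. All 6 libraries with dexamethasone lay within a narrow band below the vehicle libraries, at a log2 fold change of -0.96 with a standard error of 0.048 (limma, adjusted p = 3.98e-08). Cxcl12 was the steadiest member, with a residual SD of 0.038 on the log2 scale over the 9 libraries, above that of 3.46% of all genes.

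Ccl2 encodes the monocyte chemoattractant MCP-1 and was the least abundant member in both groups with dexamethasone. Its level was 2.24, 1.47 and 2.72 FPKM with dexamethasone plus THSG, 2.63, 3.61 and 2.25 FPKM with dexamethasone, and 8.31, 6.50 and 6.89 FPKM with vehicle. All vehicle libraries lay above all others, while the spread was wide, with a residual SD of 0.332 that exceeded that of 97.4% of genes. The log2 fold change for dexamethasone over vehicle was -1.34 (SE 0.217, limma adjusted p = 0.000543). Values this close to 1 FPKM lie near the floor of the table, and their counting error is unknown.

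Both inhibitors among the members were higher. Il1rn encodes the interleukin 1 receptor antagonist, which occupies the receptor without activating it. It stood at 49.2, 49.3 and 55.6 FPKM with dexamethasone plus THSG, at 43.2, 32.1 and 59.3 FPKM with dexamethasone, and at 3.82, 5.77 and 7.73 FPKM with vehicle. The lowest library with dexamethasone, at 32.1 FPKM, lay far above the highest vehicle library. The log2 fold change of 2.95 (SE 0.235, 95% interval 2.43 to 3.46, limma adjusted p = 1.93e-06) ranked 11 from the top among all genes. Its spread was large as well, with a residual SD of 0.390 on the log2 scale that exceeded that of 98.8% of genes. Dexamethasone replicate 3, the library with the highest mitochondrial share, held the highest Il1rn value; without it the log2 fold change was 2.73.

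Nfkbia encodes IkB-alpha, the inhibitor that holds NF-kB in the cytoplasm and is itself an NF-kB target. Its level was 13.4, 14.4 and 14.8 FPKM with dexamethasone plus THSG, 13.6, 13.4 and 12.1 FPKM with dexamethasone, and 8.51, 7.60 and 10.0 FPKM with vehicle. The 3 vehicle libraries were the lowest of the 9, and the log2 fold change was 0.58 (SE 0.097, limma adjusted p = 0.000647). This rise was much smaller than that of Il1rn.

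Both subunit genes among the members had smaller log2 fold changes in size than the other members. Nfkb1, which encodes the p105 precursor of the p50 subunit, stood at 21.5, 23.4 and 24.4 FPKM with dexamethasone plus THSG, at 22.0, 24.0 and 22.8 FPKM with dexamethasone, and at 28.2, 25.1 and 27.4 FPKM with vehicle. The vehicle libraries were the highest of the 9, by a small margin. Its log2 fold change for dexamethasone over vehicle was -0.23 (SE 0.065, limma adjusted p = 0.0186). The call ended with median-ratio scaling (-0.18, adjusted p = 0.0537) and without dexamethasone replicate 1 (-0.20, adjusted p = 0.066), vehicle replicate 1 (-0.19, adjusted p = 0.0702) or vehicle replicate 3 (-0.21, adjusted p = 0.0568). Rela, the gene of the transactivating subunit p65, measured 27.7, 29.7 and 27.2 FPKM with dexamethasone plus THSG, 26.4, 27.7 and 28.4 FPKM with dexamethasone, and 31.9, 29.6 and 29.2 FPKM with vehicle. The dexamethasone libraries lay just below the vehicle libraries, while 1 library with THSG, at 29.7 FPKM, lay among them. For dexamethasone over vehicle the log2 fold change of Rela was -0.14 (95% interval -0.26 to -0.01, limma adjusted p = 0.0801) and did not pass.

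As a description without a test, the balance of inhibitor to subunit can be read from levels within a library. The level of Nfkbia per level of Rela was 0.475 ± 0.045 with dexamethasone and 0.288 ± 0.047 with vehicle (SD, n = 3 each), and per level of Nfkb1 it was 0.569 ± 0.043 with dexamethasone and 0.323 ± 0.036 with vehicle. These are RNA levels and say nothing of protein.

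The order of the members by level changed between groups. With dexamethasone plus THSG the order ran Il1rn, Rela, Nfkb1, Cxcl12, Csf1, Nfkbia, Vcam1 and Ccl2, from 51.4 ± 3.7 FPKM for Il1rn to 2.14 ± 0.63 FPKM for Ccl2, and Nfkb1 and Cxcl12 overlapped. With dexamethasone the order was the same, from 44.9 ± 14 to 2.83 ± 0.70 FPKM, with no overlap between neighbours. With vehicle it ran Csf1, Cxcl12, Vcam1, Rela, Nfkb1, Nfkbia, Ccl2 and Il1rn, from 46.1 ± 0.80 FPKM for Csf1 to 5.77 ± 2.0 FPKM for Il1rn. There Vcam1 overlapped with Rela, Nfkbia with Ccl2, and Ccl2 with Il1rn. Il1rn was thus the most abundant member in both groups with dexamethasone and had the lowest mean with vehicle.

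The promoter letters of a member that fell and of one that rose are shown because both carry a match to the NF-kB consensus. The sequences come from RefSeq annotation of mouse build GRCm38.p6, while the submitters' processing notes name GRCm39 for the reads. Windows were available for 6 of the 9 members (Csf1, Cxcl12, Il1rn, Icam1, Nfkbia and Rela), with 3 alternative starts for Il1rn. Each covers the 250 bases before an annotated start, read 5′ to 3′ on the gene's strand, with matches in capitals. For Csf1 the window is chr3:107760470-107760719 on the minus strand, and for Nfkbia chr12:55492648-55492897 on the minus strand.
Csf1: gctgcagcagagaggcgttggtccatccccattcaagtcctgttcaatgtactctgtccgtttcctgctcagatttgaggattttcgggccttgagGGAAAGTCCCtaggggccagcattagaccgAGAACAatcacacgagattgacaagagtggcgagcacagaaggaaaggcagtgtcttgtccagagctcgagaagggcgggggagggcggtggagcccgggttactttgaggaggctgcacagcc
Nfkbia: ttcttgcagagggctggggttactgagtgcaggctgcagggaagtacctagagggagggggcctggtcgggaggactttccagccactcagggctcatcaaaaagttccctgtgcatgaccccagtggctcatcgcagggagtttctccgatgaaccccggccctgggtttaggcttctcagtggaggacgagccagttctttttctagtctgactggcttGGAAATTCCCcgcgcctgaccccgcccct
The search used the NF-kB consensus by name and the glucocorticoid receptor half-site AGAACA, on both strands. The first capitals in Csf1, GGAAAGTCCC, are an NF-kB match from 154 to 145 bases before the start, and the second, AGAACA, are the half-site from 124 to 119 bases before it. The capitals in Nfkbia, GGAAATTCCC, are an NF-kB match from 29 to 20 bases before the start. The matches did not overlap each other, and both NF-kB matches read in consensus order on the opposite strand. No match to either motif was found in the windows of Cxcl12, Il1rn, Icam1 and Rela. Of 32851 mouse windows of the same length, 3.90% held the NF-kB consensus and 16.1% the half-site. A match is a run of letters and was not measured as bound here.

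Most other ligands analysed were lower with dexamethasone as well. Of 36 cytokine and chemokine genes on the list, 16 were analysed, and dexamethasone lowered 11 and raised 1, which was Il1rn; their median log2 fold change was -0.67, against -0.05 over all genes. Without the 4 members on the list, 8 of 12 were lower and 0 higher, where 20.9% of all genes were lower and 12.7% higher. Across scalings and with any library left out, between 10 and 12 were lower and 1 was higher. Vegfa, the vascular endothelial growth factor, averaged 28.0 ± 2.0 FPKM with dexamethasone plus THSG, 27.2 ± 1.3 FPKM with dexamethasone and 54.8 ± 4.2 FPKM with vehicle (log2 fold change for dexamethasone over vehicle -1.01, SE 0.070, limma adjusted p = 6.07e-07). Il33, an alarmin of the interleukin 1 family, averaged 2.50 ± 0.26 FPKM with dexamethasone plus THSG, 2.81 ± 0.27 FPKM with dexamethasone and 5.18 ± 0.59 FPKM with vehicle (-0.86, SE 0.128, adjusted p = 0.000294). Some further genes fall outside the naming rule and were chosen after their values were seen. Lif, a cytokine of the interleukin 6 family that acts on muscle, had a value of -0.92 on the same scale (limma adjusted p = 0.000373), and Cx3cl1, a membrane-bound chemokine, one of -0.76 (adjusted p = 0.000249). The chemokine genes Ccl7 and Ccl8, of the same family as Ccl2, did not pass: Ccl7 averaged 9.65 ± 3.2 FPKM with dexamethasone and 10.5 ± 1.3 FPKM with vehicle (95% interval of the log2 fold change -0.63 to 0.29), and Ccl8 12.7 ± 1.8 and 16.8 ± 1.7 FPKM in those groups (-0.40, limma adjusted p = 0.0688). Ccl8 did pass when the fit held only the groups compared (adjusted p = 0.0207), with the replicate block (0.0183), and without dexamethasone replicate 1 (0.0419) or dexamethasone plus THSG replicates 1 (0.045) or 2 (0.0177), and the log2 fold change of Ccl7 was 0.065 without dexamethasone replicate 2.

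**Figure D2:**
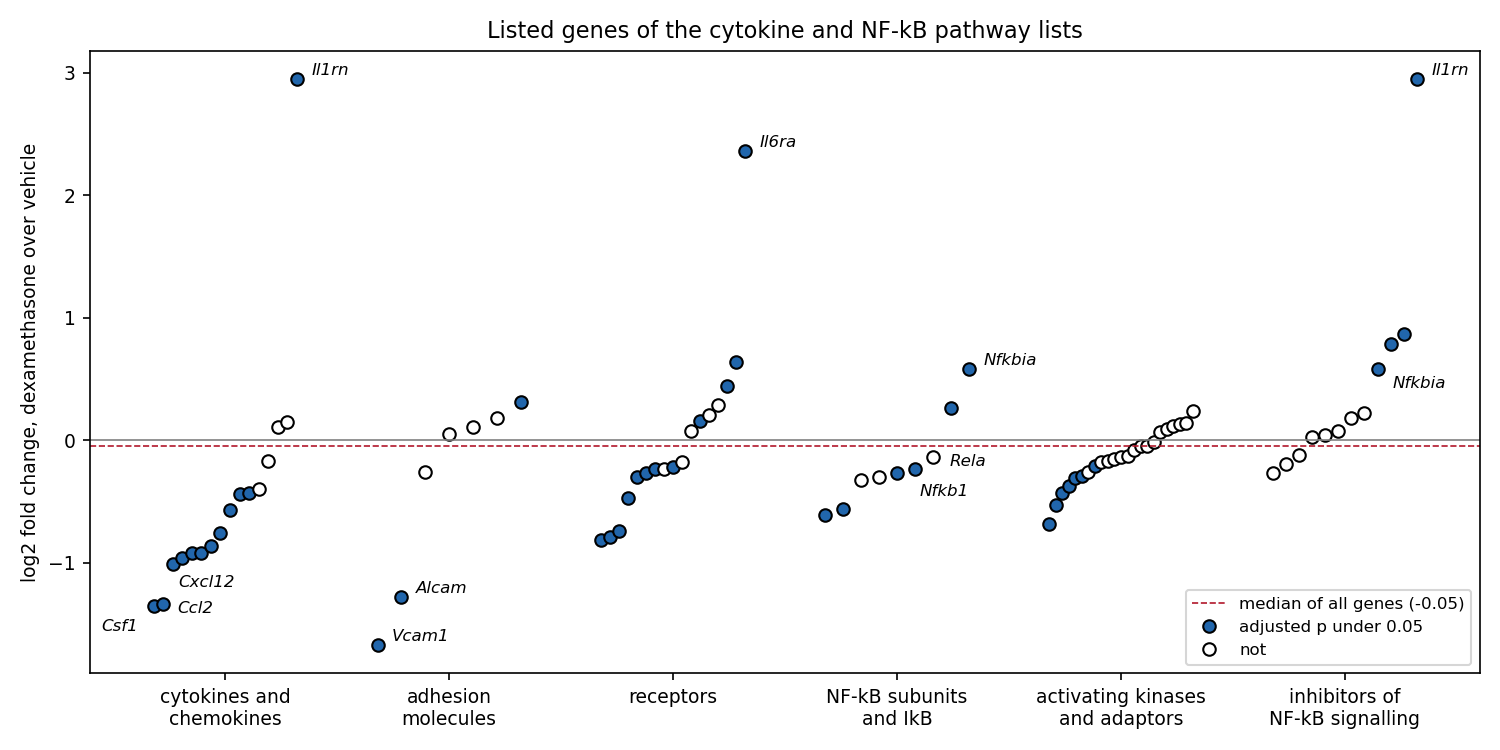
Log2 fold change of dexamethasone over vehicle (vertical axis) for each analysed gene of 6 lists, ordered within a list; filled points passed the adjusted p threshold of 0.05, open points did not, and the dashed line is the median of all genes (-0.05). A gene on 2 lists is drawn in both. Most analysed cytokines lie below the line, with Il1rn far above it. The list labelled activating kinases and adaptors, which also holds other genes, lies between -0.68 and 0.24.

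Receptors changed in both directions. Of 27 receptor genes on the list, 17 were analysed, and 8 were lower and 4 higher with dexamethasone, with a median of -0.22. Among all genes 20.9% were lower and 12.7% higher, with a median of -0.05. Il1r1, the signalling receptor that IL-1 and its antagonist share, stood at 7.04, 6.13 and 6.23 FPKM with dexamethasone plus THSG, at 6.95, 6.38 and 6.87 FPKM with dexamethasone and at 11.2, 12.1 and 11.8 FPKM with vehicle. All vehicle libraries lay on top, and dexamethasone against vehicle gave a log2 fold change of -0.79 with a standard error of 0.081 (limma, adjusted p = 1.59e-05). The level of Il1rn per level of Il1r1 was 6.63 ± 1.8 with dexamethasone and 0.491 ± 0.16 with vehicle (SD, n = 3 each), so antagonist RNA exceeded receptor RNA in all 3 dexamethasone libraries and stayed below it in all 3 vehicle libraries. Il1rap, the accessory protein of that receptor, named after its values were seen, was higher (log2 fold change 0.64, adjusted p = 0.00484), with all 9 libraries near the floor of the table, between 1.33 and 2.69 FPKM.

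Cxcr4, the signalling receptor of CXCL12, fell with its ligand. It stood at 19.9, 18.9 and 15.5 FPKM with dexamethasone plus THSG, at 18.9, 16.0 and 18.7 FPKM with dexamethasone, and at 29.4, 27.8 and 32.2 FPKM with vehicle. The vehicle libraries were the highest, and dexamethasone against vehicle gave a log2 fold change of -0.74 with a standard error of 0.098 (limma, adjusted p = 0.00013). Ackr3, which scavenges CXCL12 and was named after its values were seen, averaged 9.26 ± 0.33 FPKM with dexamethasone and 10.8 ± 0.25 FPKM with vehicle (log2 fold change -0.22, adjusted p = 0.0218). That call ended with median-ratio scaling (-0.18, adjusted p = 0.0688), equal sums (-0.20, 0.0544) and quantile normalization (-0.15, 0.105), and without dexamethasone replicate 2 (0.0525), dexamethasone replicate 3 (0.0658) or vehicle replicate 2 (0.0725).

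Receptors of the interleukin 6 family differed in direction. Il6ra, the ligand-binding chain for IL-6, stood at 8.50, 9.96 and 9.63 FPKM with dexamethasone plus THSG, at 10.4, 10.5 and 9.27 FPKM with dexamethasone and at 1.37, 2.07 and 2.35 FPKM with vehicle. The groups with dexamethasone stood clear of vehicle, and the log2 fold change of 2.36 with a standard error of 0.161 (limma, adjusted p = 5.35e-07) ranked 20 from the top among all genes. The vehicle values lie near the floor of the table, and with a pseudocount of 1 the log2 fold change was 1.93. Lifr, the receptor of LIF, stood at 6.75, 7.35 and 7.41 FPKM with dexamethasone plus THSG, at 6.89, 7.12 and 8.07 FPKM with dexamethasone and at 12.9, 12.5 and 13.4 FPKM with vehicle. Here the vehicle libraries were the highest (log2 fold change -0.81, adjusted p = 1.2e-05). Il6st, the signalling chain both use, named after its values were seen, averaged 50.4 ± 2.2 FPKM with dexamethasone and 47.7 ± 0.071 FPKM with vehicle and did not pass (0.08, adjusted p = 0.226). Tlr4, the receptor for bacterial lipopolysaccharide, was higher (0.44, adjusted p = 0.00171), and Tnfrsf12a, the receptor of the wasting-linked ligand TWEAK, was lower (-0.47, adjusted p = 0.00116).

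**Figure D3:**
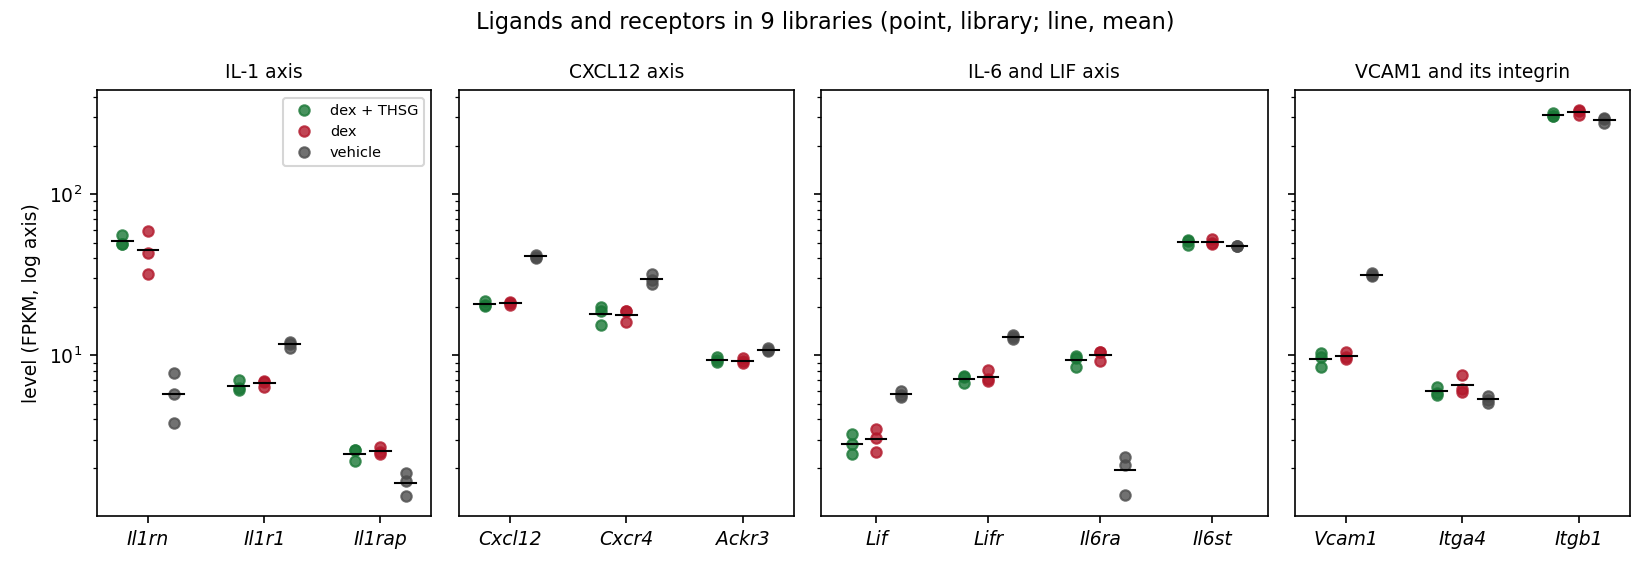
Levels (FPKM, log axis) of ligands and receptors with dexamethasone plus THSG, dexamethasone (dex) and vehicle; points are libraries and lines the means of 3. Il1rn lies above Il1r1 in the 6 libraries with dexamethasone and below it in the 3 vehicle libraries, Cxcl12 and Cxcr4 are both lower with dexamethasone, and Il6ra and Lifr lie on opposite sides of their vehicle levels.

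Of 13 adhesion molecules on the list 7 were analysed, with 2 lower (Vcam1, itself a member, and Alcam) and 1 higher with dexamethasone, shares near those over all genes (20.9% lower and 12.7% higher). Alcam, an adhesion molecule of the same immunoglobulin superfamily, averaged 3.64 ± 0.86 FPKM with dexamethasone and 8.83 ± 0.39 FPKM with vehicle (log2 fold change -1.28, limma adjusted p = 8.42e-05), whereas Ncam1, which marks muscle membranes, averaged 261 ± 1.2 and 210.3 ± 5.9 FPKM in those groups (0.31, adjusted p = 6.79e-05). Itga4, the integrin chain that binds VCAM1 and was named after its values were seen, averaged 6.56 ± 0.90 FPKM with dexamethasone and 5.32 ± 0.26 FPKM with vehicle (0.29, adjusted p = 0.0526); it did pass in 7 of 18 alternatives, median-ratio scaling (0.34, adjusted p = 0.0307) and the removal of dexamethasone replicate 1 (0.36, 0.0378) among them. The level of Vcam1 per level of Itga4 was 1.53 ± 0.26 with dexamethasone and 5.96 ± 0.28 with vehicle.

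Within the NF-kB machinery, 9 of 11 subunit and IkB genes were analysed, of which 4 were lower and 2 higher with dexamethasone (median -0.27). Without the 3 members on this list, 3 of 6 were lower and 1 was higher. The shares over all genes were 20.9% lower and 12.7% higher, with a median of -0.05. Relb, a subunit of the noncanonical pathway, stood at -0.56 on the log2 scale (limma adjusted p = 0.00365), and Nfkbie, the gene of IkB-epsilon, at -0.61 (adjusted p = 0.00824), opposite in sign to Nfkbia. Nfkb2, the precursor of p52, was lower (-0.27, adjusted p = 0.0173), a call that ended without dexamethasone replicate 3 (adjusted p = 0.0683) or vehicle replicate 1 (0.0707). Nfkbib, the gene of IkB-beta, was higher (0.26, adjusted p = 0.0332), but that call ended without any 1 of the dexamethasone replicates (0.0552 to 0.0986) or vehicle replicates 1 or 3 (0.122 and 0.0509). The number of lower genes in this list was 3 without dexamethasone replicate 1 or 3 or vehicle replicate 3, and 2 without vehicle replicate 1; 1 was higher in each removal that ended the call of Nfkbib. Rel averaged 1.58 ± 0.31 FPKM with dexamethasone and 1.98 ± 0.21 FPKM with vehicle and did not pass (adjusted p = 0.218).

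Upstream of the factor, 23 of 25 genes on a list of mostly kinases and adaptors were analysed. Of these, 7 were lower and 0 higher (median -0.14), but 4 lower and 2 higher with quantile normalization and 5 and 2 with median-ratio scaling. Over all genes 20.9% were lower and 12.7% higher, with a median of -0.05. Map3k14, the kinase NIK of the noncanonical pathway, stood at -0.53 on the log2 scale (limma adjusted p = 0.00031), the adaptor gene Traf5 at -0.68 (adjusted p = 0.00683) and the kinase gene Irak2 at -0.43 (adjusted p = 0.00977). Of 16 genes that restrain the pathway 12 were analysed, with 4 higher and 0 lower and a median of 0.13. Besides Il1rn and Nfkbia these were Dusp1, a phosphatase of stress kinases, at 46.2 ± 4.8 FPKM with dexamethasone and 25.4 ± 3.5 FPKM with vehicle (0.87, adjusted p = 4.97e-05), and Zfp36, which destabilises cytokine mRNAs, at 12.7 ± 1.3 and 7.25 ± 0.56 FPKM in those groups (0.79, adjusted p = 3.46e-05). Without the members Il1rn and Nfkbia, 2 of 10 restraining genes were higher and 0 lower, where 12.7% of all genes were higher. With all 12 restraining genes, 4 to 5 were higher and 0 to 1 lower across scalings and with any library left out. All 3 of Dusp1, Zfp36 and Nfkbia are also on the list of glucocorticoid-raised genes, where 13 of 15 analysed genes were higher and 0 lower.

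Known NF-kB targets went in both directions. Of 45 on the list 29 were analysed, and 17 were lower and 5 higher with dexamethasone (median -0.28). Without the 5 members on it, 13 of 24 were lower and 4 higher. For comparison, 20.9% of all genes were lower and 12.7% higher, with a median of -0.05. Ier3, an early response gene, averaged 6.37 ± 0.60 FPKM with dexamethasone and 15.6 ± 1.4 FPKM with vehicle (log2 fold change -1.28, limma adjusted p = 6.92e-06), and Plau, the urokinase gene, stood at -0.57 (adjusted p = 1.07e-05). Bcl2l1, which encodes the survival protein Bcl-xL, averaged 54.3 ± 0.75 and 30.5 ± 0.48 FPKM in those groups (0.83, adjusted p = 4.05e-08).

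Markers of other cells moved in both directions. Fibroblast and progenitor markers (5 of 7 analysed) summed to 618 to 648 FPKM with dexamethasone plus THSG and 587 to 615 FPKM with dexamethasone. Their sum with vehicle was 853 to 924 FPKM. Col3a1 was a large part of this sum, at means of 335 FPKM with dexamethasone and 580 FPKM with vehicle. Col1a1, Col3a1 and Dcn were lower and Pdgfra and Ly6a higher. Markers of undifferentiated or dividing myoblasts (6 of 8 analysed) summed to 64.6 to 70.8 FPKM with dexamethasone plus THSG, 61.8 to 66.4 FPKM with dexamethasone and 69.7 to 75.9 FPKM with vehicle, with Top2a, Ccnd1, Cd34 and Pax7 lower and Myf5 and Id3 higher. Among all genes, 20.9% were lower and 12.7% higher with dexamethasone than with vehicle. The part of these markers in the changes of the members was not tested.

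The genes whose profiles over the 9 libraries lay closest to a member were found by the root mean square difference of log2 values after each gene's own mean was removed. For Vcam1 these were Dpysl3 (0.075), Anln (0.095) and Fbn1 (0.097), for Csf1 Slit2 (0.057), Adcy7 (0.064) and Fam20a (0.065), and for Cxcl12 Sdc2 (0.048) and Emp1 (0.051). The nearest to Il1rn were Vegfd (0.261), Fam180a (0.296) and Ifi207 (0.328). For scale, the median difference to all genes was 0.795 for Vcam1, 0.614 for Csf1, 0.452 for Cxcl12 and 1.51 for Il1rn.

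Dexamethasone plus THSG was set against dexamethasone to ask whether THSG alters the response of these genes, and no member passed. Of the 8 members 0 passed, with limma adjusted p-values from 0.719 to 0.981, and 0 had an unadjusted p under 0.05. Over all genes 0% were called, and 777 genes (7.25%) had an unadjusted p under 0.05. The libraries of the groups overlapped for all 8 members, where 13.3% of all genes stood apart. For Vcam1 the log2 fold change of dexamethasone plus THSG over dexamethasone was -0.06 (95% interval -0.23 to 0.11), for Csf1 0.06 (-0.06 to 0.18) and for Cxcl12 -0.01 (-0.12 to 0.09). Beside these stand log2 fold changes of dexamethasone over vehicle of -1.67, -1.35 and -0.96. For Nfkbia the value was 0.12 (-0.09 to 0.34), for Nfkb1 0.01 (-0.13 to 0.15) and for Rela 0.04 (-0.09 to 0.16). The intervals were wider for Il1rn, 0.24 (-0.28 to 0.75), and for Ccl2, -0.40 (-0.87 to 0.08), the members with the largest spread, so smaller differences in these were not detectable. Without dexamethasone replicate 2 the Il1rn value was 0.02 and without dexamethasone replicate 3 it was 0.46; the Ccl2 value was -0.16 without dexamethasone plus THSG replicate 2 and -0.58 without its replicate 3. Of the 9 subunit and IkB genes, 16 cytokines, 17 receptors and 29 NF-kB targets analysed, 0 passed in this comparison, with medians of 0.03, 0.02, 0.01 and 0.03, against 0.02 over all genes. Among the 23 genes of the kinase and adaptor list 0 passed as well (median 0.04). Libraries of the groups stood apart for 5 of these 23 with THSG on top and for 1 with dexamethasone alone on top.

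**Figure D4:**
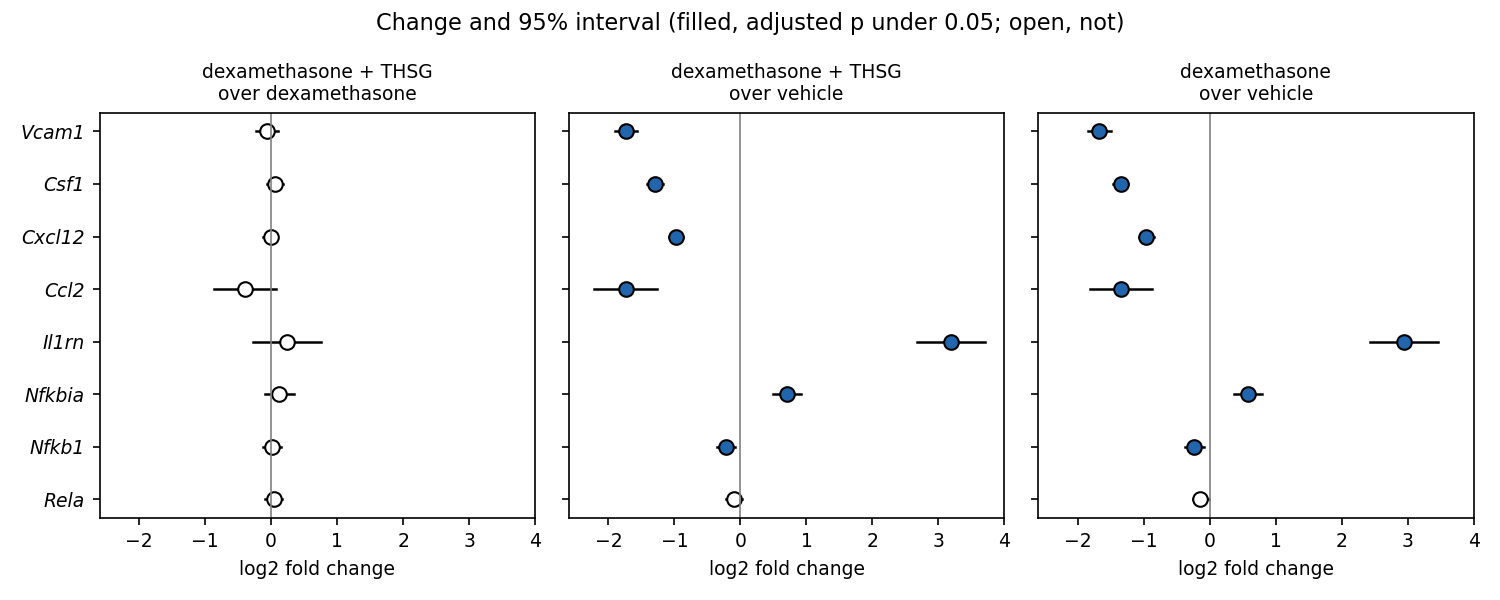
Log2 fold change (horizontal axis) and 95% interval of the 8 listed genes in 3 comparisons; filled points passed the adjusted p threshold of 0.05 and open points did not. With THSG over dexamethasone all intervals include 0, and both comparisons with vehicle show 2 genes higher, 5 lower and Rela open.

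Dexamethasone plus THSG was also set against vehicle, and shares its vehicle libraries with the comparison above. Here 5 members were lower and 2 higher, where 29.1% of all genes were called, 17.0% lower and 12.1% higher. The libraries did not overlap for 2 members higher and 5 lower, where 17.9% and 25.2% of all genes stood apart. The log2 fold changes were -1.73 for Vcam1 (SE 0.078), -1.29 for Csf1 (SE 0.055), -0.97 for Cxcl12 (SE 0.048), -1.74 for Ccl2 (SE 0.217), 3.19 for Il1rn (SE 0.235) and 0.71 for Nfkbia (SE 0.097), with limma adjusted p-values from 9.46e-09 to 0.000168. Il1rn ranked 7 from the top among all genes and Ccl2 ranked 25 from the bottom. Nfkb1 was lower (-0.22, adjusted p = 0.0254), a call that ended with median-ratio scaling (-0.185, adjusted p = 0.0544) and without dexamethasone plus THSG replicate 1 (0.0962) or 2 (0.0541) or vehicle replicate 1 (0.0894) or 3 (0.0755), and Rela did not pass (-0.10, adjusted p = 0.21). The level of Il1rn per level of Il1r1 was 7.99 ± 0.97 with dexamethasone plus THSG and 0.491 ± 0.16 with vehicle, and that of Nfkbia per level of Rela 0.504 ± 0.034 and 0.288 ± 0.047 in those groups. Of the 16 cytokine genes analysed, 8 were lower and 1 was higher. Without the 4 members on the list, 5 of 12 were lower and 0 higher. Among the 23 genes of the kinase and adaptor list 3 were lower and 0 higher.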

How the data were processed

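Per the labels' protocols, stranded mRNA libraries (TruSeq) were made from myotube RNA isolated with the Hybrid-R kit. Among tools, STAR 2.7.10a and featureCounts stand in the submitters' processing notes, with the build GRCm39 (mm39). The deposited values carry the name counts but are fractional, and were taken to be FPKM, which no source used here states. Orders and ratios of levels between different genes rest on that reading. How the authors turned counts into these values, the strand setting and the filter are not stated.

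A limma model (version 3.58.1, R 4.3.3) was fitted to log2(FPKM + 0.1), with 1 mean per group over the 9 libraries, an intensity trend, two-sided tests and Benjamini-Hochberg adjustment over 10716 genes (threshold 0.05). The fit was tested on simulated data. Fold changes understate those of low genes. Replicates are separate libraries whose origin is not given, so p-values measure only their spread. Genes were matched by symbol, or by Ensembl ID where the table held another symbol; 129 of 200 were found. Members and lists were chosen with earlier results of these data known. All members were named, up to 6 genes per list by smallest p, any subunit or cell marker, and the 3 nearest profiles of Vcam1, Csf1, Cxcl12 and Il1rn, of which 1 is not reported here. Alternatives covered pseudocounts of 0 and 1, median-ratio, equal-sum and quantile scaling, a minimum mean of 5 FPKM, a fit with no trend, a fit to the 2 groups of a comparison only, each library left out, and replicate number as a block.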

Additional observations from a re-analysis of the deposited data

How the results depend on the processing

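Of 1391 values recomputed under alternatives, 34 lost a call, 21 gained one and 10 changed sign. Another 1324 kept direction and side of the threshold or, for counts of genes called, were of similar size to the reported count. The other 2, both counts of genes called for dexamethasone plus THSG over dexamethasone, went from 0 to 1. Called genes numbered 2956 to 3616 over the alternatives for dexamethasone over vehicle (3601 as reported) and 2559 to 3189 for dexamethasone plus THSG over vehicle (3120 as reported). The calls of Vcam1, Csf1, Cxcl12, Il1rn, Ccl2 and Nfkbia against vehicle held in every alternative that tested them; the minimum mean of 5 FPKM left Ccl2 out. Nfkb1 lost its call with median-ratio scaling, at -0.180 for dexamethasone over vehicle and -0.185 for dexamethasone plus THSG over vehicle. With 1 library left out its values ran from -0.277 to -0.194 and from -0.267 to -0.168 in these comparisons; the cause was not tested. For dexamethasone plus THSG over dexamethasone, sign changes concerned values near 0. Nfkb1 was at -0.004 with median-ratio scaling, -0.007 with equal sums and -0.010 with quantile normalization, and from -0.032 to 0.060 with 1 library left out. Over the same removals Vcam1 ran from -0.126 to 0.019, Cxcl12 from -0.039 to 0.006 and Rela from -0.000 to 0.061. Ccl7, dexamethasone over vehicle, ran from -0.407 to 0.065. The count of genes called for dexamethasone plus THSG over dexamethasone ran from 0 to 1 with 1 library left out (Cks2, without dexamethasone replicate 3) and was 1 with the replicate block (Rps2-ps10).

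The replicate numbers showed no sign of pairing the libraries. Correlations of same-numbered libraries ran from -0.086 to 0.107, and 1 of 9 exceeded 0.1. Those of differently numbered libraries ran from -0.123 to 0.114. A shared culture or day is not excluded by these values. The unit is inferred and the depth unknown, so counting error cannot be given, which bears on genes with libraries near the 1 FPKM floor, Ccl2, Rel, Il1rap and Il6ra among them. Genes outside the table were not analysed here.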
